A study of Drosophila simulans with 12 samples.

Results

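The transcripts described here encode subunits of the RNA polymerases and factors that start transcription, measured in Drosophila simulans males of a sterile and a fertile line. The members are the probe sets whose platform gene symbol begins with Polr and a digit, with Taf and a digit, or with TfII. That rule found 45 of the 18769 probe sets of the testis array, for 43 genes, and 41 of the 13966 non-control probe sets of the abdomen array, for 40 genes. Another 3 probe sets in testis and 2 in abdomen carry such a symbol together with that of an unrelated gene, and they were left out.

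All flies were D. simulans males, 3 to 4 days old, that carried a piece of the X chromosome from D. mauritiana. Sterile males had the S variant at the OdsH locus and fertile males the F variant. OdsH is a homeobox gene known from hybrid sterility, and the series design places the difference between the pieces in 3 Kb around its exons 3 and 4. Testes came from about 150 males and abdomens from about 50, and RNA of each line and tissue was extracted and hybridised 3 times. Each line is 1 introgression line, so a difference between them cannot be told apart from other differences between the lines. Nothing in the labels ties the extractions to separate cultures, and the p-values then measure the spread between arrays, which may be technical.

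RNA polymerase I makes the large ribosomal RNA precursor, polymerase II makes messenger RNA, and polymerase III makes transfer RNA and other small RNAs. Each is a complex of many subunits, and some subunits serve all of them. At promoters of protein-coding genes, polymerase II is placed by general factors named TFIIA to TFIIH, and TFIID among them consists of the TATA-binding protein and a set of associated factors called TAFs. Drosophila spermatocytes also express paralogs of several TAFs, which are needed for the genes that build sperm.

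The arrays of a line agreed closely in testis and less so in abdomen. The correlation of arrays across tested probe sets was 0.997 to 0.998 within a line and 0.964 to 0.965 between lines in testis, and 0.905 to 0.937 and 0.890 to 0.932 in abdomen; probe sets are not independent replicates in these values. Array medians of the testis intensities were 212 to 216 for the sterile line and 219 to 222 for the fertile line, so every sterile median lay slightly lower. Medians over the members were level, at 540 to 551 on sterile and 539 to 553 on fertile arrays. Of 17 testis germline markers on the array, 14 were called present on all sterile and 13 on all fertile testis arrays. Their summed intensity was 78889 to 80350 and 79533 to 80256. Single markers went either way beneath that level sum. Of 14 tested, 5 rose and 3 fell, where 22.6% and 37.8% of all tested probe sets did. Among them, ProtB changed by 0.41 on the log2 scale and djl by -0.51. Markers of other tissues were also found in the testis samples. The 22 midgut digestive enzyme genes summed to 2480.1 to 2640 in sterile and 19832 to 20033 in fertile testis, and all 14 that were tested fell. Of these 14, 4 were called present on all sterile arrays. The other 10 thus entered the test through the fertile line alone, which favours falls among them. Jon99Fi and Mal-A1 of that list read 0 or less on at least 1 array. Accessory gland and duct genes (17 on the array) summed to 80068 to 81547 in sterile and 84282 to 84724 in fertile testis, fat body genes (9) to 7420.5 to 7478 and 9119 to 9350, and muscle genes (13) to 13588 to 14080 and 14236 to 14368. The part of these tissues in the results below was not tested. In these bulk samples, fewer cells of a type and less RNA per cell cannot be told apart.

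In sterile testis, most polymerase subunits that changed were slightly higher. The general factors, TAFs and TFII factors together, showed no such lean that held across scalings of the arrays. Of 39 members tested, 13 rose and 9 fell. To be tested, a probe set needed a present call on every array of 1 line or both, and it passed at an adjusted p under 0.05 in limma (Benjamini-Hochberg over all 9927 probe sets tested). Small changes were common on these arrays: 60.4% of all probe sets passed, 22.6% higher and 37.8% lower. The members' 56.4% passing was near that background, with 33.3% higher and 23.1% lower. The median log2 fold change was 0.03 over the tested members and -0.04 over all probe sets, and the median absolute change was 0.12 and 0.14. Values of the lines did not overlap in 25 of 39 members, 64.1%, against 64.3% of all probe sets. Sterile values lay above in 14 members, against 24.3% of all probe sets, and below in 11, against 40% of all.

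The balance of rises and falls moved with the scaling of the arrays. With each array centred on its median, 16 members rose and 6 fell, where 59.3% of all probe sets passed, 29.6% higher and 29.6% lower. With quantile normalization 16 rose and 7 fell, where 60.3% of all passed, 30.5% higher and 29.8% lower. Centring moved every log2 fold change up by 0.05, so changes of that size depend on the scale chosen. Of the 39, 35 were called present on all 6 testis arrays, as were 8276 of all probe sets. The other 4, like 1651 of all, were present on every array of 1 line only. Among them were Polr1E, which rose, and a Taf4 probe set, which fell.

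**Figure D1:**
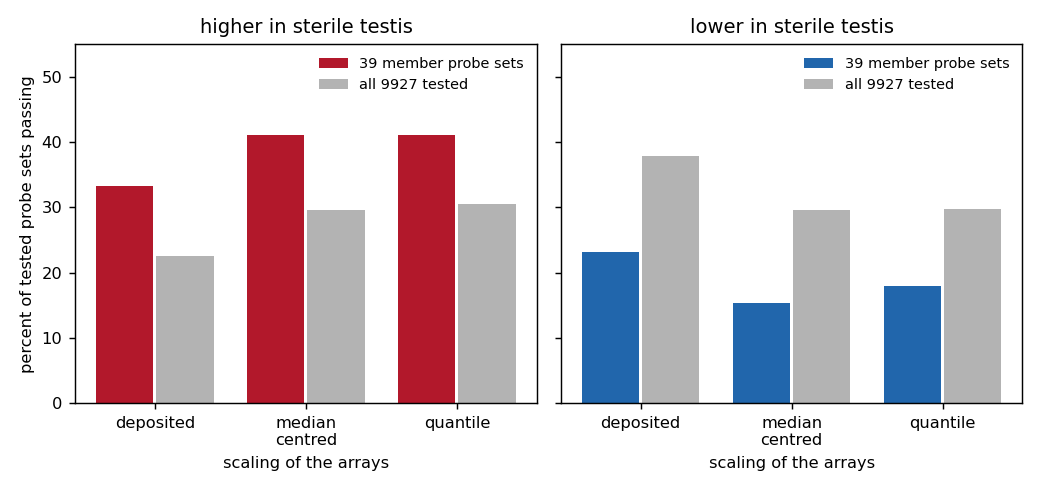
Percent of tested testis probe sets that passed as higher (left) or lower (right) in the sterile line, for the 39 tested members (coloured) and all 9927 tested probe sets (grey), under 3 scalings of the arrays. On the deposited scale 33.3% of members were higher and 23.1% lower, against 22.6% and 37.8% of all probe sets.

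Among the subunits of RNA polymerase I, 2 of 5 tested probe sets rose, 1 fell and 2 did not pass. This and each class count below should be read beside the shares of all probe sets, 22.6% higher and 37.8% lower. Polr1E, whose yeast and human counterparts belong to an initiation module of the enzyme, read 344, 324 and 349 on the sterile arrays and 280.1, 276 and 285 on the fertile ones. Every sterile value lay above every fertile value, and the log2 fold change was 0.26 ± 0.05 (SE, n = 3 per line; limma adjusted p = 0.000306). It was called present on all sterile arrays but on 66% of the fertile ones, so it entered the test through the line in which it was higher. Polr1C, a subunit that polymerases I and III share, measured 971, 942 and 980.4 in sterile and 842, 844 and 844 in fertile testis. The fertile values were nearly identical, the groups did not overlap, and the log2 fold change was 0.19 ± 0.03 (limma adjusted p = 6e-05).

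The catalytic subunit of polymerase I went the other way. Polr1A read 320.4, 329 and 333 in sterile testis against 386, 343 and 378 in fertile testis, a log2 fold change of -0.16 ± 0.05 (SE; limma adjusted p = 0.0135). The groups did not overlap, but fertile array B was close to the sterile values. The call was lost without fertile replicate A (adjusted p = 0.0773), without fertile replicate C (0.0545), after median centring (0.0658) and after quantile normalization (0.102). Polr1B, the second largest subunit, and Polr1F, a stalk subunit, overlapped between lines, with log2 fold changes of 0.07 ± 0.08 and 0.04 ± 0.06. Polr1H, a small subunit that takes part in RNA cleavage, was called present on 33% of sterile and 0% of fertile arrays and was not tested. Its means were 604 ± 32.5 (SD, n = 3) and 581 ± 15.7, with overlapping values.

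Of the subunits that serve all 3 polymerases, 4 were measured, of which 2 rose and 1 fell. Polr2K measured 747, 760.4 and 766 in sterile testis and 643, 631 and 654 in fertile testis. The gap between the groups was wider than the range of either, and the log2 fold change was 0.23 ± 0.03 (SE; limma adjusted p = 2.07e-05). Polr2E read 751, 769.9 and 763 against 691, 692 and 699, a smaller separation with a log2 fold change of 0.13 ± 0.03 (adjusted p = 0.00282).

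Polr2L, a small subunit at the assembly platform of the enzyme, had the largest fall of any polymerase subunit tested. Its sterile values were 554, 542 and 551, and its fertile values 730.2, 703 and 699. The ratio of the line means was 0.773, the groups were far apart, and the log2 fold change was -0.36 ± 0.04 (SE; limma adjusted p = 2.51e-07). Polr2H overlapped between lines at 744 ± 21 (SD, n = 3) in sterile and 719 ± 16.3 in fertile testis, and its adjusted p was 0.256. It passed as higher once arrays were centred (adjusted p = 0.0461) or quantile normalized (0.00415).

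Both tested subunits specific to polymerase II rose by about the same amount. Polr2J, an assembly subunit, read 651, 665 and 659 in sterile and 603, 588 and 603 in fertile testis, for a log2 fold change of 0.14 ± 0.04 (SE; limma adjusted p = 0.0036). Polr2G, part of the stalk through which nascent RNA leaves, read 602, 585 and 599.5 against 539, 541 and 553, and rose by 0.13 ± 0.04 (adjusted p = 0.00765). In neither gene did the groups overlap.

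Polr2M, named for a mammalian polypeptide that binds polymerase II, was called absent on all 6 testis arrays and so was not tested. Its intensities were nevertheless 209.8, 201 and 218 on sterile and 348, 369.8 and 409 on fertile arrays. The groups were far apart, with a ratio of the means of 0.558. In a fit without the filter on calls its log2 fold change was -0.79 ± 0.07 (SE; limma adjusted p = 1.31e-06). In that fit 7524 of 18769 probe sets passed in either direction. Polr2M is shown because its values were seen to lie apart, so this p is no independent support. The authors' deposited table gives it a fold score of 1.8 for fertile against sterile testis.

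RNA polymerase III subunits counted 4 rises and no fall among 7 tested probe sets, with a median log2 fold change of 0.14. Of all probe sets 22.6% rose and 37.8% fell, and the difference from those shares was not tested. Polr3C, which belongs to the initiation subcomplex of the enzyme, read 178, 164 and 156 in sterile and 144, 131 and 124 in fertile testis. The groups did not overlap, though each spread widely, and the log2 fold change of 0.29 ± 0.08 (SE; limma adjusted p = 0.00437) was the highest of all tested members. Polr3B, the second largest subunit, read 469, 501 and 492 against 454, 461 and 410.1. Polr3D read 503, 505 and 533 against 454, 485 and 459.

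Polr3E, in human cells the partner of Polr3D's counterpart, read 449.6, 475 and 429 against 401, 426 and 397. Each of the 3 genes rose by 0.14 on the log2 scale, with SEs of 0.05, 0.04 and 0.05 and limma adjusted p of 0.0226, 0.0126 and 0.0198, and in each the lowest sterile value was close to the highest fertile value. These calls rest on few arrays. Polr3B did not pass without sterile replicate B (adjusted p = 0.0632), sterile replicate C (0.0638) or fertile replicate C (0.137), without the filter (0.0543) or without the variance trend (0.0572). Polr3D did not pass without sterile replicate C (0.0639) or fertile replicate A (0.0586). Polr3E did not pass without sterile replicate B (0.084), fertile replicate A (0.0686) or fertile replicate C (0.0747).

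The catalytic subunit Polr3A did not pass, at 187 ± 7.94 (SD, n = 3) in sterile and 191 ± 18.9 in fertile testis, nor did Polr3F, at 395 ± 20.6 and 387 ± 15.6. Polr3G, of the same subcomplex as Polr3C, overlapped at 292 ± 19.1 and 319 ± 43.6. Its log2 fold change was -0.11 ± 0.08, and it passed as lower without fertile replicate B, the lowest fertile array (limma adjusted p = 0.00833). Polr3I was called present on 33% of the arrays of each line and was not tested, with means of 486 ± 18.3 and 500.2 ± 5.42.

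**Figure D2:**
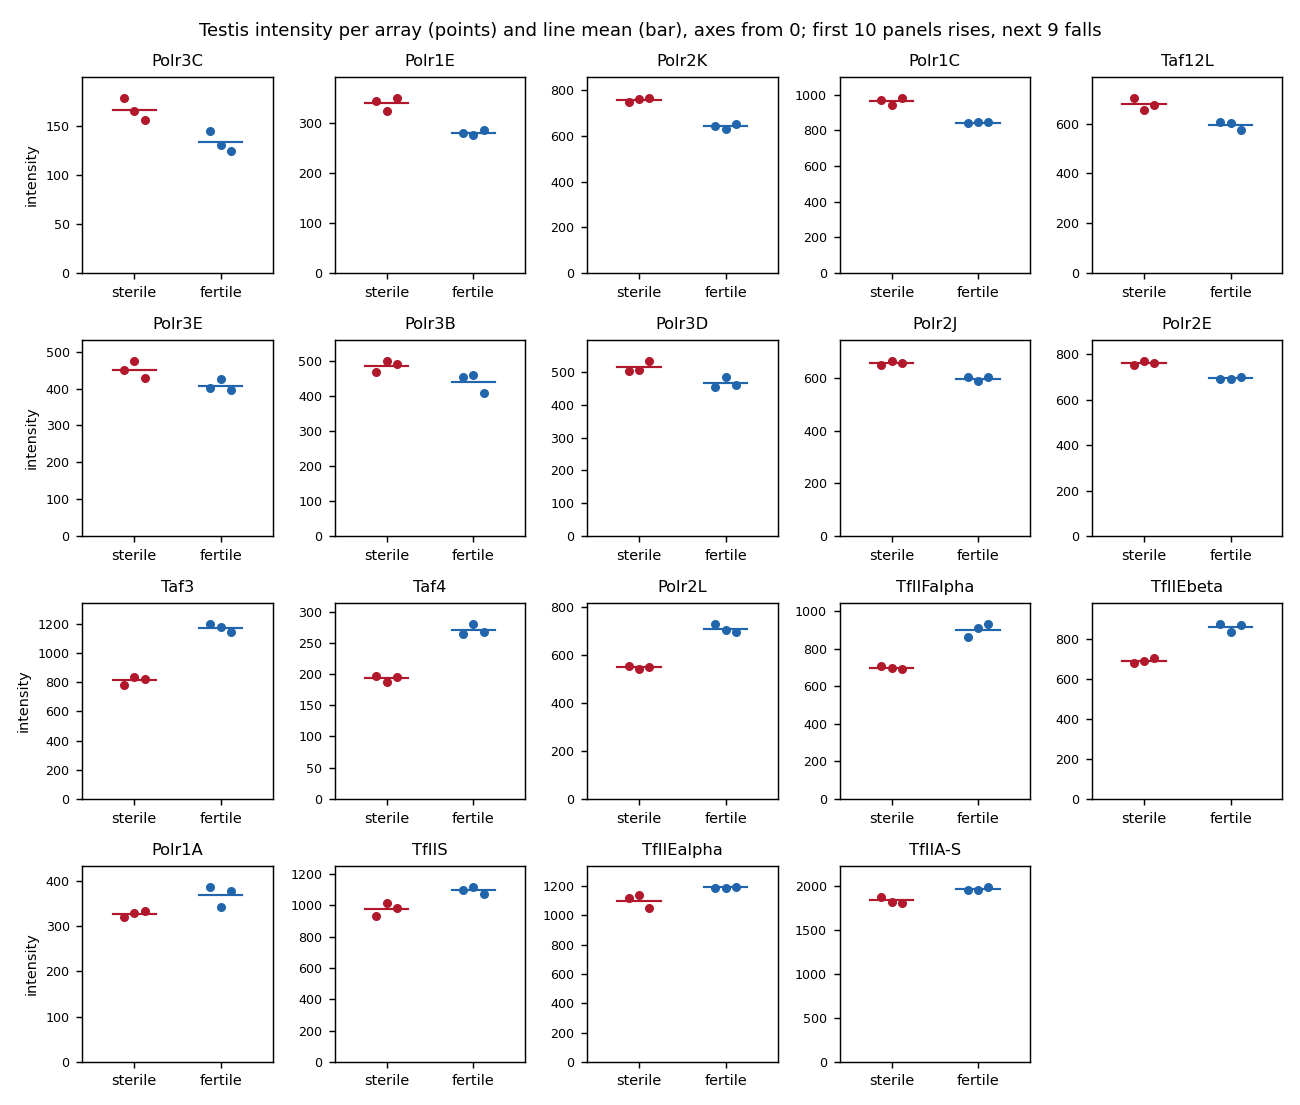
Testis intensity on each of the 3 arrays per line (points, in the order A, B, C; red sterile, blue fertile) with the line mean (bar), for the 10 highest rises and the 9 falls among the members; each axis starts at 0. In all 19 panels the points of the lines do not overlap.

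Among the TAFs few calls were made, but they include the largest fall of all tested members. Of 12 probe sets tested, 2 fell, 2 rose and 8 did not pass, with a median log2 fold change of -0.03. Among all probe sets tested, 37.8% fell and 22.6% rose. Taf3, a histone-fold TAF, read 783, 838 and 820.0 on sterile and 1199, 1178 and 1143 on fertile arrays. The groups were separated by several times their own range, with a ratio of the means of 0.693. Its log2 fold change of -0.52 ± 0.03 (SE; limma adjusted p = 1.12e-09) was the largest fall of the tested members and the 1 change of at least 0.5 among them, 2.56%, against 10.2% of all probe sets.

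Taf4, a core TAF that pairs with Taf12, was measured by a pair of probe sets that disagreed. The brighter read 198, 188 and 195 in sterile and 264, 280.1 and 267 in fertile testis, a log2 fold change of -0.45 ± 0.06 (SE; limma adjusted p = 3.7e-06). It was called present on 66% of sterile and 100% of fertile arrays, so it passed the filter through the line in which it was higher. The dimmer was present on all arrays and overlapped between lines at 155, 151 and 145 against 168, 147 and 154 (log2 fold change -0.05 ± 0.07, adjusted p = 0.572). By their names, both hold probes that can match several transcripts.

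Taf12 and its testis paralog Taf12L were both higher. Taf12 read 786, 854 and 856 in sterile and 774, 742 and 784 in fertile testis, groups that nearly met but did not overlap. It rose by 0.11 ± 0.04 on the log2 scale (SE; limma adjusted p = 0.0182). The call was lost without sterile replicate B (adjusted p = 0.0553), sterile replicate C (0.0824) or fertile replicate B (0.086), and without the variance trend (0.0595). Taf12L read 702, 656 and 674 against 608, 604 and 575 in its brighter probe set and rose by 0.18 ± 0.04 (adjusted p = 0.000865) with no overlap. Its dimmer probe set was not tested and overlapped at 74.8 ± 16.4 and 78.5 ± 3.44 (SD, n = 3).

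Taf7, which restrains the enzyme activity of TAF1 in mammals, was not tested because it was called present on 33% of sterile and 66% of fertile arrays. It read 234, 241 and 236 in sterile and 377, 361 and 370.2 in fertile testis. The groups were far apart, with a ratio of the means of 0.641. Without the filter its log2 fold change was -0.61 ± 0.05 (SE), with a limma adjusted p = 1.39e-06, where 7524 of 18769 probe sets passed. Like Polr2M, Taf7 was picked after its values were seen to lie apart, so this p is no independent support. The authors' deposited table gives it a fold score of 1.55 for fertile against sterile testis.

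Taf1, the scaffold of TFIID, read 286 ± 14.1 (SD, n = 3) in sterile and 288 ± 29.8 in fertile testis. The paralogs Taf10 and Taf10b, which also serve the SAGA coactivator, did not pass, with log2 fold changes of -0.00 ± 0.05 and -0.05 ± 0.04. Taf13 and Taf9 did not pass, with log2 fold changes of -0.05 ± 0.04 and -0.06 ± 0.05, although Taf13 values did not overlap. Taf5 (0.16 ± 0.08) and Taf6 (0.06 ± 0.04) did not pass on the deposited scale but did as higher once arrays were centred (adjusted p = 0.0319 and 0.0463) or quantile normalized (0.042 and 0.00915). Taf8 was called absent on all arrays, at 262 ± 16.9 and 282 ± 30.4.

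Of the 9 TFII probe sets, all tested, 5 fell, 1 rose and 3 did not pass, with a median log2 fold change of -0.10. All tested probe sets gave 37.8% lower and 22.6% higher. TfIIFalpha, the large subunit of the factor that escorts polymerase II to the promoter, read 708, 695 and 691 in sterile and 864, 911 and 932 in fertile testis. TfIIEbeta, the small subunit of the factor that brings in TFIIH, read 682, 694 and 707 against 878, 837 and 875. Both pairs of groups were well separated, with log2 fold changes of -0.36 ± 0.04 (SE; limma adjusted p = 2.09e-07) and -0.31 ± 0.03 (adjusted p = 9.06e-07).

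Their partner subunits moved less. TfIIEalpha read 1116, 1136 and 1049 in sterile and 1189, 1188 and 1194 in fertile testis, a log2 fold change of -0.11 ± 0.03 (SE; limma adjusted p = 0.00653). The groups were apart, but the call was lost once arrays were centred (adjusted p = 0.113) or quantile normalized (0.264). TfIIFbeta did not overlap between lines at 933 ± 21 and 980.3 ± 8.64 (SD, n = 3), yet did not pass (log2 fold change -0.07 ± 0.03, adjusted p = 0.0618). Without sterile replicate B it passed as lower (0.0387), and after quantile normalization its log2 fold change was 0.01. The differences between partner subunits were not tested.

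TfIIS, the elongation factor that rescues stalled polymerase II, read 935, 1016 and 985 in sterile testis and 1098, 1118 and 1073 in fertile testis. It fell by 0.16 on the log2 scale (SE 0.03; limma adjusted p = 0.000656), with no overlap. TfIIA-S, the small subunit of the factor that steadies the TATA-binding protein on DNA, read 1880.0, 1821 and 1806 against 1957, 1954 and 1989.7. The groups were apart on the deposited scale, with a log2 fold change of -0.10 ± 0.02 (adjusted p = 0.00265), but the call was lost after median centring (0.115).

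TfIIB, which joins polymerase II to the promoter complex, was the TFII factor that rose. It read 2228, 2322 and 2287 in sterile and 2144, 2071 and 2072 in fertile testis, with no overlap, and the log2 fold change was 0.12 ± 0.02 (SE; limma adjusted p = 0.00056). TfIIA-L, the large TFIIA subunit, had means of 1526 ± 52.3 and 1525 ± 53.9 (SD, n = 3). The paralog TfIIA-S-2 had means of 562 ± 28.3 and 550.5 ± 31.8, with overlapping values, and was called present on all sterile but on 33% of fertile arrays.

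**Figure D3:**
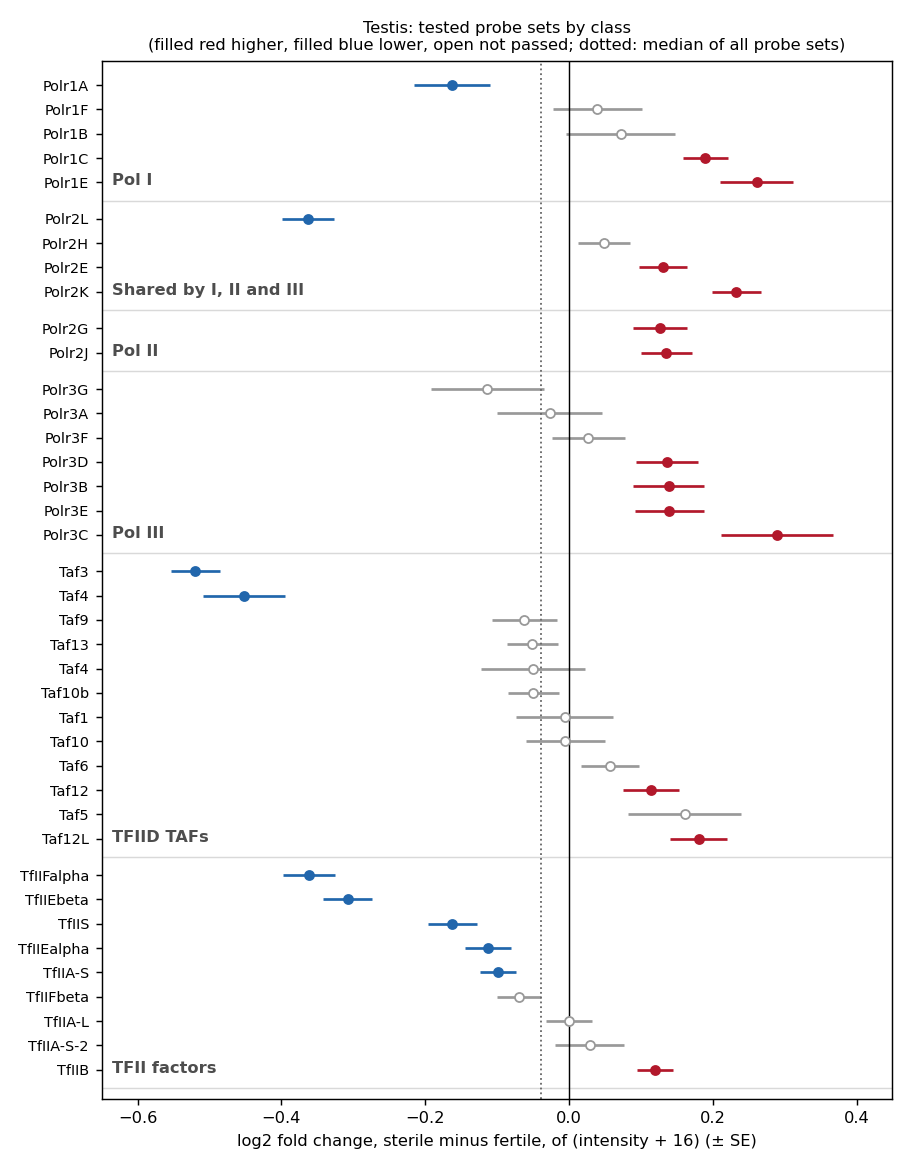
Log2 fold change of sterile over fertile testis (points, ± SE) for the 39 tested members, on the log2(intensity + 16) scale and grouped by complex; filled red points passed as higher, filled blue as lower, open grey did not pass, and the dotted line is the median of all tested probe sets. Of 18 polymerase subunit probe sets 10 rose and 2 fell, and of the 9 TFII probe sets 1 rose and 5 fell. All 9927 tested probe sets gave 22.6% higher and 37.8% lower.

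Grouped by complex, the 18 tested polymerase subunit probe sets had a median log2 fold change of 0.13 with 10 higher and 2 lower, where 22.6% and 37.8% of all probe sets passed in those directions. With median centring 11 were higher and 1 lower, with a median of 0.17. TFII factors counted 1 higher and 3 lower of 9 on that scale (median -0.05), and TAFs 4 higher and 2 lower of 12 (median 0.02). Together the TAFs and TFII factors gave 3 higher and 7 lower of 21 on the deposited scale, a share of falls no higher than the 37.8% of all probe sets. They gave 5 higher and 5 lower after median centring, and 5 and 6 after quantile normalization. The differences between these groups were not tested.

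Other genes of the transcription machinery moved in both directions. This list, drawn up with earlier results of these data known, matched 82 genes on the testis array, of which 72 were tested. On the deposited scale 8 rose and 23 fell, with a median log2 fold change of -0.06, and after median centring 10 rose and 18 fell. Of all probe sets 22.6% rose and 37.8% fell on the first of these scales. Elongation and pausing factors counted 1 higher and 9 lower of 18, with 7 lower after centring and 5 after quantile normalization. The balance of Mediator and TFIIH turned with the scaling. Mediator subunits counted 3 higher and 7 lower of 23 on the deposited scale, 4 and 5 after centring, and 6 and 5 after quantile normalization. TFIIH subunits counted 1 higher and 3 lower of 9, then 2 and 3, then 4 and 3, and 9 SAGA genes gave no call on any scale. TATA factors and promoter partners counted 2 higher and 3 lower of 9 on each scale. Trf2, a relative of the TATA-binding protein, read 340.4 ± 7.54 (SD, n = 3) in the sterile and 475 ± 8.28 in fertile testis, a log2 fold change of -0.46 ± 0.04 (SE; limma adjusted p = 1.18e-07). Ssrp, a subunit of the histone chaperone FACT, had a log2 fold change of -0.44 ± 0.04, and mrn, a TFIIH subunit, one of -0.39 ± 0.03. The largest rises were those of Pbp95, of the snRNA promoter complex, at 0.44 ± 0.16, of nht at 0.39 ± 0.04 and of Fcp1, the phosphatase of the polymerase II tail, at 0.37 ± 0.07. Pbp95 was dim, at 45.7, 62.9 and 79.0 in sterile and 43.9, 31.4 and 49.1 in fertile testis. Its lines overlapped (limma adjusted p = 0.0254). Tbp itself did not pass, at 155 ± 14.2 and 153 ± 2.19.

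The testis paralogs of TAFs stood beside Taf12L as follows. nht, the paralog of Taf4, rose from 458.6 ± 25.2 in fertile to 605 ± 14.4 in sterile testis (SD, n = 3). sa, the paralog of Taf8, fell by 0.07 on the log2 scale (limma adjusted p = 0.049), and can and mia did not pass; after median centring nht rose and none of the 4 fell.

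In abdomen no member differed between the lines by the test. Limma called 0 of 18 tested members at an adjusted p under 0.05, where 0.544% of all 6983 probe sets passed, 0.258% higher and 0.286% lower. Without regard to replicate letters, none of the 18 had an unadjusted p under 0.05, as 8.12% of all probe sets did, and 1 had an absolute log2 fold change of at least 0.5, against 15.3% of all. Abdomen arrays of the same replicate letter deviated alike, although the labels do not say that a letter links a sterile and a fertile array. With the letter as a block, 65 probe sets passed in place of 38, which is 0.931% of all, with no member among them. In that fit 2 of 18 members, TfIIFbeta and Taf9, had an unadjusted p under 0.05, against 11.4% of all probe sets. Sterile lay on the same side of fertile within all 3 letters in 5 of 18 members, against 34.1% of all probe sets. The arrays were noisier than in testis: the median residual SD over members was 0.34 on the log2 scale, against 0.05 in testis. Confidence intervals (95%) on the log2 fold change reached between 0.37 and 1.34 to either side of the estimate. The narrowest of these, 0.37, exceeded the testis change of every tested member except Taf3 and the brighter probe set of Taf4.

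Taf9, a histone-fold TAF, had the smallest p in abdomen without the block. It read 638, 578 and 474 in sterile and 911, 761 and 670.2 in fertile males. The groups did not overlap, with the sterile values below, as in 7.02% of all probe sets (above in 7.09%, either way in 14.1%). Its log2 fold change was -0.46 ± 0.21 (SE; 95% interval -0.93 to 0.01; limma adjusted p = 0.619). It was lower in sterile within each of the 3 letters, with an SE of 0.18 and an adjusted p of 0.385 in the blocked limma fit. TfIIFbeta read 1173, 951 and 1582 against 804, 586 and 1269, overlapping groups with a log2 fold change of 0.51 ± 0.29 (adjusted p = 0.743). Within letters it was higher in sterile each time, by 0.54, 0.68 and 0.31 on the log2 scale for A, B and C. The blocked limma fit gave 0.51 ± 0.16 (SE; adjusted p = 0.258), the smallest p of the members there. Taf12 read 314, 503 and 273 against 566, 462 and 405, with sterile array B inside the fertile range (-0.42 ± 0.28, adjusted p = 0.778).

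Polr2L read 1242, 1477 and 1582 in sterile and 1095, 1321 and 1212 in fertile abdomens, groups that overlapped, with a log2 fold change of 0.24 ± 0.17 (SE; limma adjusted p = 0.78). It too was higher in sterile within all 3 letters, by 0.18, 0.16 and 0.38, and did not pass in the blocked fit (0.24 ± 0.14, adjusted p = 0.581). Polr2H read 500, 548 and 228 against 285, 226 and 379, and its sterile array C was inside the fertile range (0.43 ± 0.37, adjusted p = 0.82). The other 13 tested members had log2 fold changes between -0.47 (Taf8) and 0.27 (a probe set of Taf4).

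The remaining 23 members lay below the median intensity of the abdomen array and were not tested. Values of these dim probe sets spread widely, as for Polr1E, at 54.5, 389.6 and 189.7 in sterile and 45, 36.7 and 46.4 in fertile abdomens, and Polr3D, at 208, 507 and 228 against 52.1, 177 and 113. In both, the sterile values lay above the fertile ones, while the lines overlapped in the rest of the 23. Among tested probe sets the sterile values lay above in 7.09%, and the share among dim ones is not given here. TfIIB overlapped, at 20.4, 136.7 and 128.3 against 86.9, 28.2 and 24.8.

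**Figure D4:**
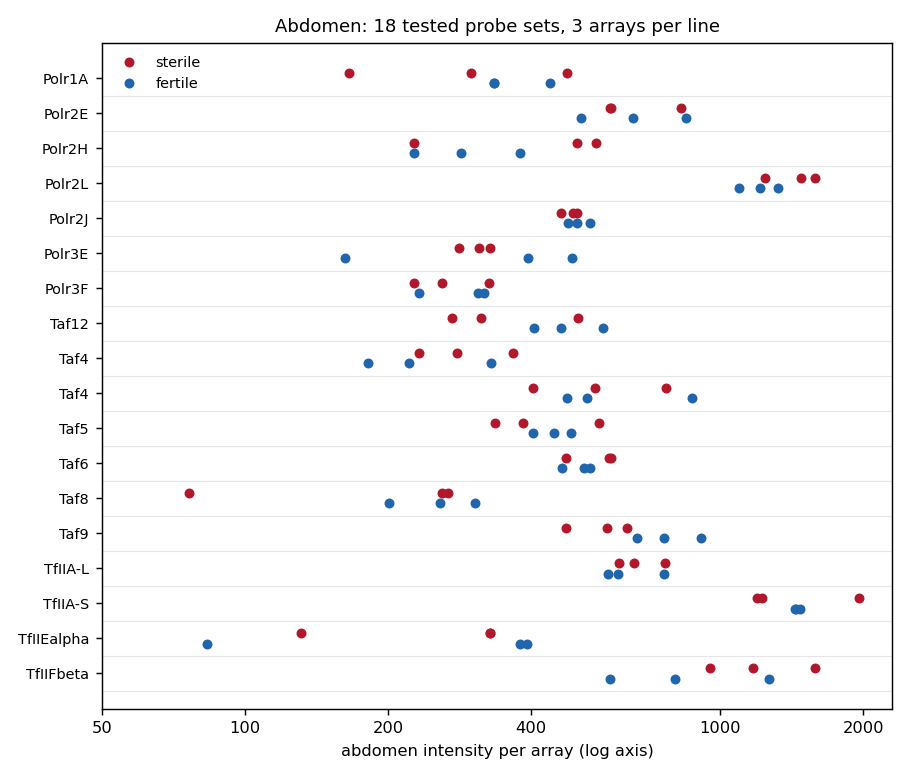
Abdomen intensity on each array (points; red sterile, blue fertile; log axis) for the 18 tested member probe sets. The points of the lines overlap for every probe set except Taf9.

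Testis germline markers were also read in the abdomen samples. The 15 on that array summed to 89115 to 114214 in sterile and 93040 to 124087 in fertile abdomens. The abdomen is therefore not a tissue free of testis RNA, and the part of that RNA in its values was not tested. For the 16 genes tested in both tissues, the sterile effect in testis was compared with that in abdomen in 1 fit, with array weights for each tissue. No gene passed (0 of 16 at an adjusted p under 0.05 in limma, against 3.82% of 4709 genes), and 2 had an unadjusted p under 0.05, against 15.5% of all genes. Polr2L was lower in sterile testis, at -0.36 ± 0.04 (SE), and its abdomen value was 0.24 ± 0.17. The difference between tissues was -0.60 ± 0.19 on the log2 scale (95% interval -1.01 to -0.19; limma adjusted p = 0.108). It passed without array weights (adjusted p = 0.0478), a setting that gives abdomen arrays the same weight as the more precise testis arrays.

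TfIIFbeta differed by -0.58 ± 0.26 (SE; 95% interval -1.13 to -0.03; limma adjusted p = 0.292), from -0.07 in testis and 0.51 in abdomen. With each tissue fitted separately, 1 of 16 genes had an unadjusted p under 0.05, Polr2L (adjusted p = 0.105). For the other 14 genes the difference lay between -0.38 (Polr2H) and 0.53 (Taf12). Each of these 14 intervals (95%) held 0 as well as the testis change itself.

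**Figure D5:**
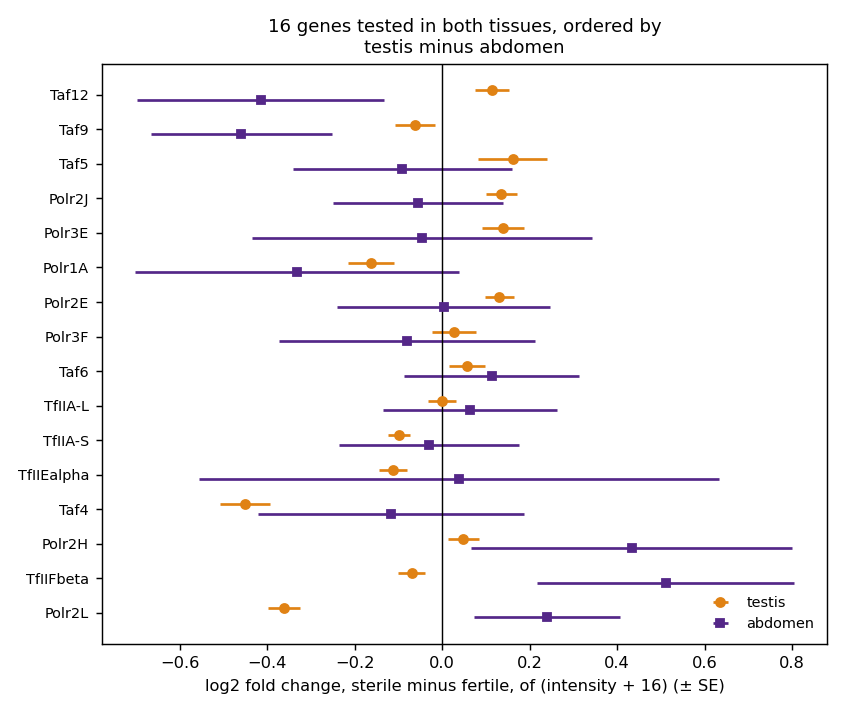
Log2 fold change of sterile over fertile (± SE, on the log2(intensity + 16) scale) in testis (circles) and abdomen (squares) for the 16 genes tested in both tissues, ordered by the difference. Abdomen errors are several times the testis errors, and Polr2L, at -0.36 in testis and 0.24 in abdomen, has the most negative difference.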

How the data were processed

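The deposited values of both tissues are intensities of probe sets on a linear scale; MAS5 is named in the submitters' processing notes. On each testis array 26 to 37 probe sets have intensities under 0, and how the authors arrived at those is not given in the sources used here. The authors' deposited table, for testis, holds per the file headers the percent of a line's arrays with a present call, which served as the filter. The authors' table also holds, per the file headers, a signed fold score and a p-value for fertile against sterile, of which only the score is quoted. Another 12 columns, with single-array values and calls, carry titles shared by a testis and an abdomen sample and were left aside.

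Values below 0 were set to 0 and log2(intensity + 16) was taken, which understates changes of dim genes; fold changes are on that scale. Each tissue was fitted with limma 3.58.1 in R 4.3.3 (lmFit, eBayes with an intensity trend, Benjamini-Hochberg adjustment). Testis probe sets needed present calls on all 3 arrays of at least 1 line, and abdomen probe sets a mean at or above the median. The difference between tissues used 1 probe set per gene and tissue, the brightest. On simulated data that fit gave too many false calls, so a version with separate tissue variances, chosen after seeing the data, is given beside it. The number of arrays limits the precision. The smallest exact permutation p of 3 against 3 arrays is 0.1.

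Replicate letters were checked for pairing. In abdomen, deviations of same-letter arrays from their group means correlated at 0.15, 0.288 and 0.26 for A, B and C. Arrays of different letters gave -0.221 to -0.0157. That makes pairing by letter possible without showing it, so the blocked fit is given beside the main one. In testis the same-letter values were -0.0683, 0.153 and 0.0541. Sterile A with fertile C gave 0.161 there, so no pairing by letter was seen. Members and lists were chosen with earlier results of these data known. Every member could be named. Values per array are given for the 10 highest rises, the 10 largest falls (9 passed) in testis, the 5 smallest p in abdomen and members outside the filter whose lines lay apart, the last chosen after seeing their values. Polr2G and TfIIB, given per array too, and Taf12 were outside the first 10 rises. Symbols are those of the platform annotation for D. melanogaster genes, so mismatches to D. simulans were not corrected and no genome position is given.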

Additional observations from a re-analysis of the deposited data

How the results depend on the processing

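Across the 14 alternatives for testis, 15 of the 22 members that passed kept their call and sign under every alternative that tested them, and 7 lost it under at least 1 (Polr1A, Polr3B, Polr3D, Polr3E, Taf12, TfIIA-S and TfIIEalpha). Of the 17 that did not pass, 5 passed under at least 1 (Polr2H, Taf5, Taf6, Polr3G and TfIIFbeta). No call turned its direction. Leaving out 1 array gave 10 to 13 members higher and 8 to 10 lower. Of all 9927 probe sets tested, 5396 passed without fertile replicate A and 5914 without sterile replicate B, against 5995 in the main fit. Without the filter 12 of 45 members were higher, since Polr3B lost its call, and 11 lower, since Polr2M and Taf7 entered. There 7524 of 18769 probe sets passed in either direction. Without the variance trend 11 members were higher and 9 lower, where 5478 of the 9927 probe sets passed. With the replicate block 13 were higher and 9 lower in testis, 0 in abdomen and 0 in the difference between tissues, so the block changed no call of a member. In abdomen no member passed under any alternative. In the difference between tissues 1 gene passed as lower without array weights, Polr2L. The other transcription genes counted 14 higher and 16 lower after quantile normalization, against 8 and 23; the cause was not tested. Dim abdomen signals limit what can be seen there: 23 of 41 members lay below the filter.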
